A study of Mus musculus with 6 samples.

Results

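The levels of 10 genes of the circadian clock were followed in neonatal mouse heart muscle cells: the PAR bZIP genes Hlf, Dbp and Tef, the period genes Per1, Per2 and Per3, the REV-ERB genes Nr1d1 and Nr1d2, and the DEC genes Bhlhe40 and Bhlhe41. They were taken by gene name from a table of 54532 genes, and all 10 were present. The set was selected on FPKM differences between the study's 2 groups that were already known, so the levels of these 10 genes are described here and carry no test. The cells were primary ventricular cardiomyocytes of C57BL/6J mice 1 day old. In 3 libraries (shGDF11) they carried short hairpin RNA against Gdf11, which encodes a TGF-beta family growth factor. In 3 libraries (control) they carried hairpin RNA that the sample names call sh-nc and the treatment text sh-Vector. Both groups were treated at a multiplicity of infection of 200, and RNA was taken at 48 h. The labels number the samples of each group 1 to 3 without saying whether a number stands for a culture or for a hairpin, so a p-value here speaks only to how these samples scatter, and that scatter may be technical. With 1 time point, and with no time of day or medium change given in the sources used here, a different level of a clock gene and a different phase of its rhythm cannot be told apart.

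The clock is a loop of transcription factors. CLOCK, or its relative NPAS2, pairs with BMAL1 (the product of Arntl) and binds E-box motifs, switching on the period and cryptochrome genes, whose proteins return to block the pair. The same E-box factors drive the REV-ERB repressors, which compete with ROR activators at another motif in genes such as Arntl and Nfil3. They also drive the PAR bZIP activators, which bind D-box motifs in output genes, where NFIL3 acts as a repressor. The DEC proteins are E-box repressors that also respond to hypoxia and to extracellular signals. In the heart this loop sets daily rhythms of metabolism and of electrical excitability.

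Reads in listed genes numbered 15267083 to 16152910 per library. Gdf11 was at 0.614, 0.601 and 0.778 FPKM (fragments per kilobase of gene length, scaled to the size of the library) in the shGDF11 libraries, against 2.76, 2.30 and 2.31 FPKM in the control libraries. Control replicate 1 stood apart from the other control libraries. The chi-square between its reads and those of control replicates 2 and 3 was 16.3 and 22.01 per degree of freedom, against 6.22 between those 2 and 3.79 to 4.44 among shGDF11 libraries. All 10 cardiomyocyte markers examined, such as Myh6, Tnnt2 and Actc1, were present, and their summed level was 7283 to 7525 FPKM in shGDF11 and 8985 to 9275 FPKM in control libraries, with 2 rises and 6 falls by limma (adjusted p under 0.05). Of all 15418 genes tested, 27.6% were called in this way, 14.4% higher and 13.1% lower. Among the cardiomyocyte markers Actc1 was the most abundant, at 2727 to 2788 FPKM in shGDF11 and 3837 to 4486 FPKM in control libraries. Markers of other cell types were also present, and part of each list differed between the groups. The 8 endothelial markers summed to 49.6 to 52.7 FPKM in shGDF11 and 73.2 to 78.3 FPKM in control libraries, and 6 fell by limma. The 7 smooth muscle markers summed to 397.8 to 403.8 FPKM in shGDF11 and 1006 to 1083 FPKM in control libraries, with 5 falls. Most of that sum was Acta2, at 367 to 374 FPKM in shGDF11 and 956 to 1024 FPKM in control libraries, so the sum mostly follows this gene. Myh11 was only at 1.45 to 1.85 FPKM in shGDF11 and 2.20 to 2.64 FPKM in control libraries. Tagln was at 0.275 to 0.522 FPKM in shGDF11 and 0.672 to 1.18 FPKM in control libraries. Rgs5 and Notch3 were not called. For the 8 macrophage markers the sums were 123.2 to 134.8 FPKM in shGDF11 and 158.6 to 181.2 FPKM in control libraries, with 3 falls among 7 tested. C1qa, C1qb and Lyz2 fell, while Cd68, Csf1r, Adgre1 and Fcgr1 were not called. Lyz2 was the most abundant, at 81.8 to 90.6 FPKM in shGDF11 and 107.1 to 122.0 FPKM in control libraries. For the 9 fibroblast markers the sums were 377.1 to 394.4 FPKM in shGDF11 and 298.2 to 352.4 FPKM in control libraries, with 3 rises. The most abundant of them, Col1a1, was at 150 to 163 FPKM in shGDF11 and 108 to 168 FPKM in control libraries and was not called. None of these markers was at 0 in every library, though Ptprc of the macrophage list was only at 0.088 to 0.144 FPKM. In such bulk samples fewer cells of a type and less RNA per cell cannot be told apart, and the part of these cell types in the clock gene values was not tested.

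The promoters show which clock motifs lie next to the starts of these genes. RefSeq start sites on GRCm38.p6 were at hand for 8 of the 10 genes (Hlf, Dbp, Tef, Per1, Per3, Nr1d1, Nr1d2 and Bhlhe41), in 10 windows of the 250 bases before the start. A set of 5 motifs was searched on both strands: the E-box CACGTG, the E-box-like CACGTT, the D-box TTATGTAA, the hexamer AGGTCA of REV-ERB and ROR sites, and the cAMP response element TGACGTCA. The E-box and the E-box-like motif differ in their last base, so that no stretch of letters is counted under both. The promoters of 4 genes are shown in gene direction, with the matches in capitals. That of Hlf is shown because Hlf had the largest difference of the 10, and that of Per3 because it holds a pair of D-boxes, the motif that HLF, DBP and TEF bind. Those of Per1 and Bhlhe41 are shown as E-box promoters.
Hlf (chr11:90390918-90391167, minus strand): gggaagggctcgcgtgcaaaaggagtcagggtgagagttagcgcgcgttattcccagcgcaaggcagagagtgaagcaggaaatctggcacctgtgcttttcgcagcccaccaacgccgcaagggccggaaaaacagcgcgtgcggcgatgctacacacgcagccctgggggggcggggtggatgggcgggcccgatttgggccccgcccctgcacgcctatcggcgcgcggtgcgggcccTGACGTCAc
Per3 (chr4:151044666-151044915, minus strand): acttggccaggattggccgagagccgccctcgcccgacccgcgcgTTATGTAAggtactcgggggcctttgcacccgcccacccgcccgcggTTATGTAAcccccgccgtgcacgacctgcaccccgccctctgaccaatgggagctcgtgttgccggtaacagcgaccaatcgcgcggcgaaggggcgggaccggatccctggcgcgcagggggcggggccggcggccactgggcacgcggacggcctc
Per1, upstream start (chr11:69098699-69098948, plus strand): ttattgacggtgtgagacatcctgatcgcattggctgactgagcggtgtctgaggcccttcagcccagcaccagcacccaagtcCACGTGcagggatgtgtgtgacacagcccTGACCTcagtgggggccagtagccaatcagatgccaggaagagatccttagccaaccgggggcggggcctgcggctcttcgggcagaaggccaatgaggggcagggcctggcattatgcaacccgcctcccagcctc
Bhlhe41 (chr6:145865421-145865670, minus strand): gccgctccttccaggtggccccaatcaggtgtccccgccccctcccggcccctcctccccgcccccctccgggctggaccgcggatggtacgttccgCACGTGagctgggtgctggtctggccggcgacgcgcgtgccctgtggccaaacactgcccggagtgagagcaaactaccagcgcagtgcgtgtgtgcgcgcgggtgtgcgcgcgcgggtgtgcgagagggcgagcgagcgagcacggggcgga
The Hlf promoter held no E-box, D-box or AGGTCA hexamer, and its capitals mark a cAMP response element that begins 9 bases before the start. Of all 32851 promoter windows, 1.55% held that element. In Per3 the D-boxes began 205 and 158 bases before the start. One or more D-boxes were found in 0.819% of all windows, and 2 or more in 6 windows. The upstream start of Per1 had an E-box 166 bases before it, and an AGGTCA hexamer in reverse (TGACCT) 137 bases before it. Bhlhe41 had an E-box at 153 bases, and Tef had 1 before each of its 2 starts, at 127 and 138 bases. E-boxes were found in 6.02% of all windows. The Nr1d1 promoter had an E-box-like motif at 28 bases (3.85% of windows), and that of Nr1d2 an AGGTCA hexamer at 77 bases (14% of windows). The Dbp window and the second Per1 window had no match. Only the exact letters given above were searched, so variant forms of a motif, in Per1 or in any other window, were neither marked nor counted. A match describes the letters only and says nothing of binding in these cells.

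The 10 genes had no common direction. All 10 passed the filter used for the tests below, which kept genes averaging 0.5 FPKM or more. Their mean level was higher in shGDF11 for 5 and lower for 5. For 6 of the 10 genes the 2 groups were fully separated, 4 higher (Hlf, Per2, Nr1d2 and Per3) and 2 lower (Bhlhe40 and Bhlhe41). Among all 15418 genes tested, 45.8% had no overlap, 23.7% higher and 22.2% lower. The call rule used for other genes (limma, Benjamini-Hochberg adjusted p under 0.05 over all genes tested) was met by 5 of the 10, which are the same 6 without Per3, and by 27.6% of all genes tested. Because the set was chosen with this difference known, nothing is read from these counts. The median log2 difference of the 10 genes was 0.08, against 0.01 for all genes tested, and the lowest count of any of the 10 in any library was 121 reads.

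**Figure D1:**
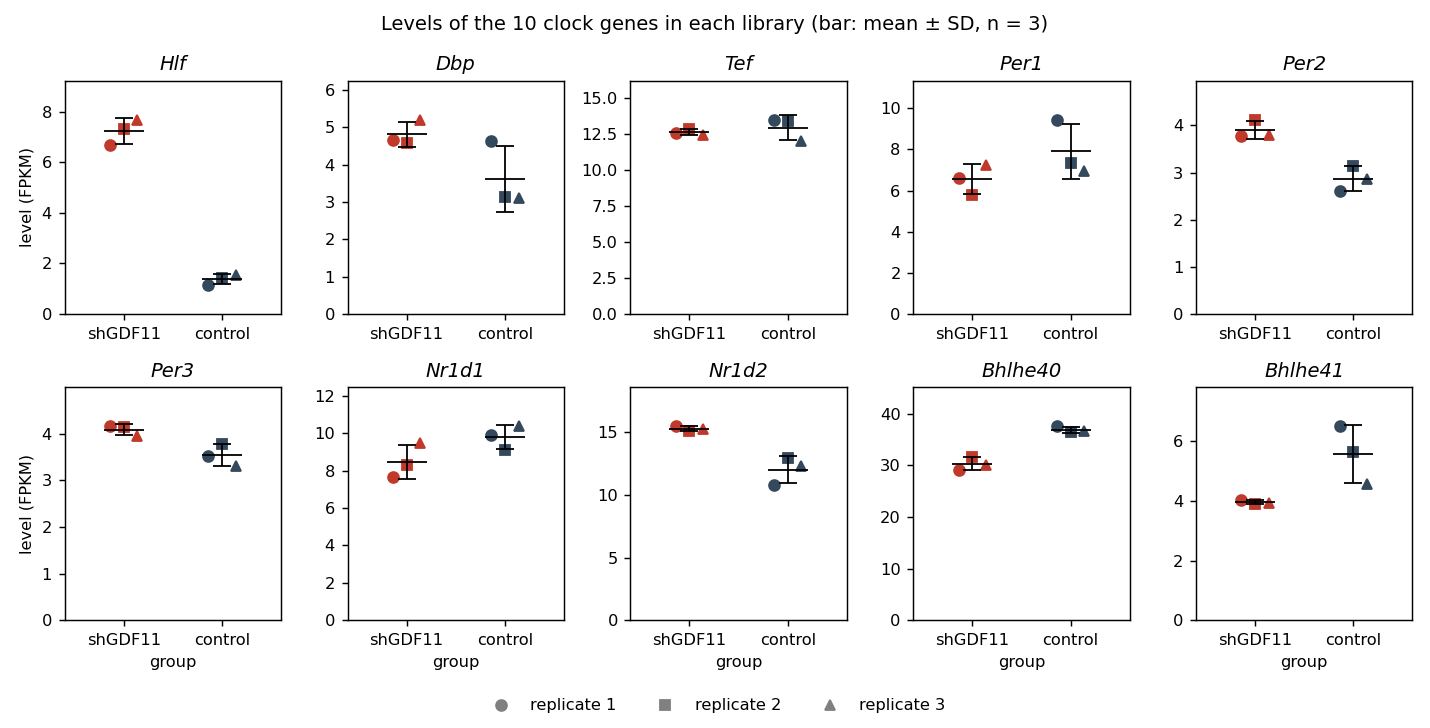
Level in FPKM (vertical axes, from 0, 1 scale per gene) of the 10 clock genes in the shGDF11 and control libraries; symbols mark the replicate number and the bars the mean ± SD of 3 libraries. Hlf is at 6.68 to 7.68 FPKM in shGDF11 and 1.15 to 1.52 FPKM in control libraries, while the other 9 genes differ by far less and Dbp, Tef, Per1 and Nr1d1 overlap between the groups.

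Hlf stood out among the PAR bZIP genes. It encodes hepatic leukaemia factor, a D-box activator (ENSMUSG00000003949; GRCm38 chromosome 11, 90336536 to 90390895, minus strand). Its level was 6.68, 7.34 and 7.68 FPKM in the shGDF11 libraries, against 1.15, 1.44 and 1.52 FPKM in the control libraries. These values rest on 733 to 828 reads in shGDF11 and 121 to 166 reads in control libraries. Every shGDF11 library was more than 4 times as high as any control library: the ratio of the means was 5.28, and the log2 difference, on the log2(FPKM + 0.5) scale used throughout, was 2.05. On the recovered reads, without the offset of 0.5, it was 2.40 by limma voom.

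Dbp and Tef did not share this difference. Dbp (ENSMUSG00000059824, chromosome 7, 45705088 to 45710203, plus strand) encodes a D-box activator with a strong daily rhythm in many tissues. It was at 4.66, 4.57 and 5.20 FPKM in shGDF11 libraries, against 4.64, 3.13 and 3.09 FPKM in control libraries. Control replicate 1 lay within the shGDF11 range and the other 2 control libraries below it. The log2 difference was 0.38, and 0.55 without control replicate 1. Of the Dbp exon bases, 18.0% lie opposite exons of Sphk2, which was at 5.42 to 6.28 FPKM in shGDF11 and 6.46 to 7.88 FPKM in control libraries. Whether the reads were counted by strand is not given in the sources used here, and without strand the reads of such pairs cannot be told apart. Tef (ENSMUSG00000022389, chromosome 15, 81802421 to 81826863, plus strand), the third D-box activator, was at 12.5, 12.8 and 12.4 FPKM in shGDF11 libraries, against 13.5, 13.4 and 12.0 FPKM in control libraries. The groups overlapped, with a log2 difference of -0.03 that was 0.06 after rescaling to TPM.

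The make-up of the PAR bZIP group therefore differed, which FPKM, a level per gene length, allows to be summed. The 3 genes together were at 23.9 to 25.3 FPKM in shGDF11 and 16.6 to 19.3 FPKM in control libraries. Hlf made up 29.3% ± 1.205 of that sum in shGDF11 and 7.73% ± 1.62 in control libraries (mean ± SD, n = 3 each). Tef made up 51.2% ± 1.78 in shGDF11 and 72.2% ± 2.30 in control libraries, and Dbp 19.5% ± 1.03 in shGDF11 and 20.05% ± 3.53 in control libraries. Tef was thus the most abundant PAR bZIP transcript in both groups.

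**Figure D2:**
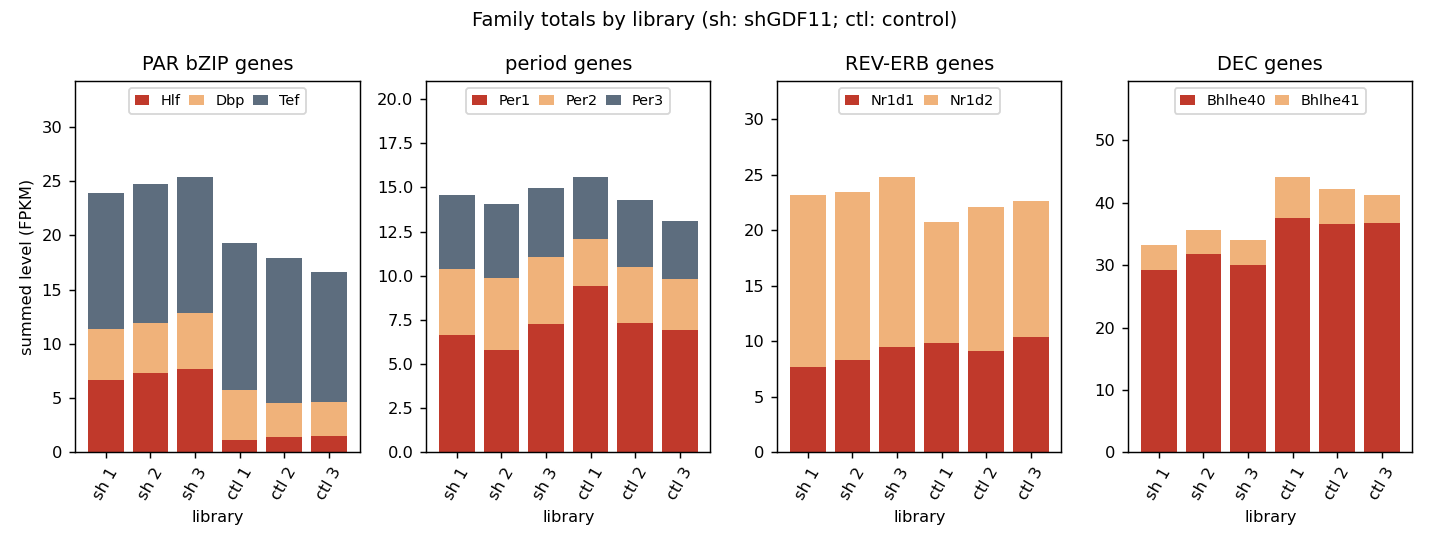
Summed level in FPKM (vertical axes, from 0) of the PAR bZIP, period, REV-ERB and DEC genes in each library, with the shGDF11 libraries (sh) left of the control libraries (ctl) and 1 colour per gene. The PAR bZIP sum is 23.9 to 25.3 FPKM in shGDF11 and 16.6 to 19.3 FPKM in control libraries, and within that stack the Hlf segment differs most.

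Among the period genes, Per2 and Per3 were higher and Per1 overlapped between the groups. PER1 and PER2 join the cryptochromes in blocking CLOCK and BMAL1, and PER3 has a lesser part in the loop itself. Per2 (ENSMUSG00000055866, chromosome 1, 91415982 to 91459324, minus strand) was at 3.78, 4.12 and 3.80 FPKM in shGDF11 libraries, against 2.62, 3.14 and 2.86 FPKM in control libraries. All 3 shGDF11 values lay above all 3 control values, with a log2 difference of 0.39. Per3 (ENSMUSG00000028957, chromosome 4, 151003652 to 151044665, minus strand), whose pair of D-boxes is shown above, was at 4.15, 4.15 and 3.95 FPKM in shGDF11 libraries, against 3.52, 3.78 and 3.30 FPKM in control libraries. Its groups were separated by a small gap, with a log2 difference of 0.19. Per1 (ENSMUSG00000020893, chromosome 11, 69095217 to 69109960, plus strand) was at 6.62, 5.78 and 7.24 FPKM in shGDF11 libraries, against 9.44, 7.34 and 6.95 FPKM in control libraries. Control replicate 1 was the highest of the 6 and control replicate 3 lay inside the shGDF11 range; the log2 difference was -0.25, and -0.12 without control replicate 1. The sum of the 3 period genes was 14.05 to 14.99 FPKM in shGDF11 and 13.1 to 15.6 FPKM in control libraries and overlapped. Within it Per1 made up 45.0% ± 3.61 in shGDF11 and 55.0% ± 4.90 in control libraries, and Per2 26.9% ± 2.13 in shGDF11 and 20.2% ± 2.95 in control libraries (mean ± SD, n = 3 each).

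The mean levels of the REV-ERB genes differed in opposite directions, with overlap for Nr1d1. Both encode nuclear receptors that repress Arntl and other genes and bind haem. Nr1d2 (REV-ERB beta, ENSMUSG00000021775, chromosome 14, 18204054 to 18239127, minus strand) was at 15.5, 15.1 and 15.3 FPKM in shGDF11 libraries, against 10.8, 12.96 and 12.3 FPKM in control libraries. The shGDF11 libraries were nearly equal and all above the control libraries, with a log2 difference of 0.34. Nr1d1 (REV-ERB alpha, ENSMUSG00000020889, chromosome 11, 98767932 to 98775333, minus strand) was at 7.65, 8.31 and 9.45 FPKM in shGDF11 libraries, against 9.89, 9.08 and 10.4 FPKM in control libraries. The groups overlapped through shGDF11 replicate 3, and the log2 difference was -0.20. The end of Nr1d1 lies opposite that of Thra, the thyroid hormone receptor alpha gene, which shares 8.55% of the Nr1d1 exon bases. Thra was at 13.1, 12.9 and 14.6 FPKM in shGDF11 libraries, against 16.3, 14.3 and 12.4 FPKM in control libraries, and was not called (limma adjusted p = 0.64). Nr1d2 made up 64.4% ± 2.55 of the REV-ERB sum in shGDF11 and 55.1% ± 3.36 in control libraries (mean ± SD, n = 3 each).

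Both DEC genes were lower in shGDF11. Bhlhe40 (DEC1, ENSMUSG00000030103, chromosome 6, 108660629 to 108666925, plus strand) was the most abundant of the 10 genes. It was at 29.2, 31.7 and 30.1 FPKM in shGDF11 libraries, against 37.6, 36.5 and 36.7 FPKM in control libraries. Both groups were tight and did not overlap, with a log2 difference of -0.28, or -0.19 after rescaling to TPM. Bhlhe41 (DEC2, ENSMUSG00000030256, chromosome 6, 145858243 to 145865558, minus strand) was at 4.03, 3.90 and 3.93 FPKM in shGDF11 libraries, against 6.50, 5.64 and 4.57 FPKM in control libraries. The shGDF11 values were nearly equal and the control values spread widely above them, with a log2 difference of -0.43. Of the Bhlhe41 exon bases, 19.0% lie opposite Gm43909, an unverified transcript that was at 0.0651 to 0.162 FPKM in shGDF11 and 0.523 to 0.645 FPKM in control libraries, so that reads of the 2 genes may be mixed.

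In order of level the control libraries ran Bhlhe40, Tef, Nr1d2, Nr1d1, Per1, Bhlhe41, Dbp, Per3, Per2 and Hlf. The ranges of neighbours overlapped between Tef and Nr1d2, between Nr1d1 and Per1, between Bhlhe41 and Dbp, and between Dbp and Per3. In shGDF11 libraries Hlf moved up to the fifth place, at 7.23 ± 0.511 FPKM, between Nr1d1 (8.47 ± 0.907 FPKM) and Per1 (6.55 ± 0.735 FPKM), and its range overlapped both (mean ± SD, n = 3). Per3, Bhlhe41 and Per2 ended that order, within 3.78 to 4.15 FPKM, and their neighbouring ranges overlapped.

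The libraries within a group varied unequally for these genes. The median absolute deviation from the group's own mean over the 10 genes was 0.0316, 0.0241 and 0.0378 on the log2 scale in shGDF11 replicates 1, 2 and 3, against 0.127, 0.0885 and 0.0941 in control replicates 1, 2 and 3. Over all genes tested these medians were 0.0617 to 0.0649 in shGDF11 and 0.0763 to 0.117 in control libraries. In control replicate 1, Dbp (0.34), Per1 (0.25) and Bhlhe41 (0.22) lay above the control mean, as did Ciart (0.46), Cry2 (0.19) and Cry1 (0.17). Hlf (-0.17), Nr1d2 (-0.14), Clock (-0.16) and Npas2 (-0.14) lay below it there.

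**Figure D3:**
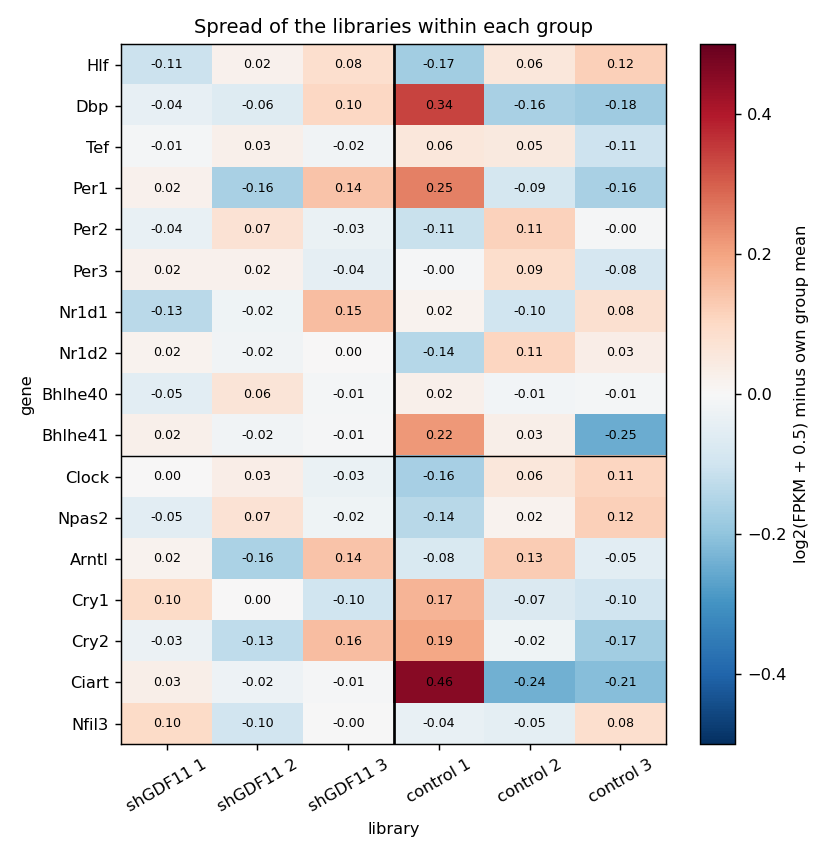
Deviation of each library from the mean of its own group on the log2(FPKM + 0.5) scale (colour and printed value) for the 10 clock genes and, under the line, 7 genes of the core loop; columns are libraries. Control replicate 1 has the largest deviations, up to 0.46 for Ciart and 0.34 for Dbp.

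Other genes of the loop were tested within the fit over all genes, from a list that was also drawn up with results of these data known. Of 25 core loop genes, all tested, 6 rose and 6 fell by limma, or 48% called against 27.6% of all genes tested, with a median log2 difference of -0.01. The list therefore had no common direction. Among the activators, Clock was at 5.94, 6.08 and 5.79 FPKM in shGDF11 libraries, against 3.56, 4.23 and 4.40 FPKM in control libraries (limma log2 difference 0.50 ± 0.0893 SE, adjusted p = 0.0076). Npas2 was at 2.57, 2.84 and 2.63 FPKM in shGDF11 libraries, against 1.33, 1.54 and 1.69 FPKM in control libraries (limma log2 difference 0.66 ± 0.105 SE, adjusted p = 0.0049). Both activators were higher in all 3 shGDF11 libraries than in any control library. Their partner Arntl was not called: it was at 2.14, 1.84 and 2.38 FPKM in shGDF11 libraries, against 2.11, 2.504 and 2.15 FPKM in control libraries (limma adjusted p = 0.67). Its relative Arntl2 was not called either (limma adjusted p = 0.45).

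Both cryptochromes, Ciart and Nfil3 fell. Cry1, which encodes a partner of the PER proteins, was at 4.99, 4.64 and 4.29 FPKM in shGDF11 libraries, against 7.47, 6.23 and 6.13 FPKM in control libraries (limma adjusted p = 0.014). Cry2 was at 3.63, 3.35 and 4.19 FPKM in shGDF11 libraries, against 6.33, 5.39 and 4.80 FPKM in control libraries (limma adjusted p = 0.021). Ciart, which encodes the repressor CHRONO, was at 2.23, 2.13 and 2.17 FPKM in shGDF11 libraries, against 5.52, 3.21 and 3.28 FPKM in control libraries (limma adjusted p = 0.030). All 3 were lower in each shGDF11 library than in any control library, and control replicate 1 was the highest for each. Nfil3, the D-box repressor that opposes HLF, DBP and TEF, was at 15.9, 13.8 and 14.8 FPKM in shGDF11 libraries, against 20.8, 20.6 and 22.6 FPKM in control libraries (limma log2 difference -0.51 ± 0.0730 SE, adjusted p = 0.0033). Rora, a ROR activator, fell to 1.78 ± 0.232 FPKM in shGDF11, against 2.74 ± 0.240 FPKM in control libraries (mean ± SD, n = 3 each; limma adjusted p = 0.017). Its relative Rorb was below 1 FPKM in every library and was not called (limma adjusted p = 0.79).

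Other regulators of the loop moved both ways. Usp2, a deubiquitinase of clock proteins, rose to 13.7 ± 0.573 FPKM in shGDF11, against 8.58 ± 0.629 FPKM in control libraries, and the coactivator gene Ncoa3 to 8.10 ± 0.236 FPKM in shGDF11, against 5.54 ± 0.133 FPKM in control libraries (mean ± SD, n = 3 each; limma adjusted p = 0.0014 and 0.0017). Nono, a PER-binding RNA-binding protein, rose by 0.22 on the log2 scale (limma adjusted p = 0.045). Csnk1e, a kinase that marks PER proteins for decay, fell by 0.26 (limma adjusted p = 0.031), while its relative Csnk1d was not called (limma adjusted p = 0.44). The F-box genes Fbxl21, Btrc and Fbxw11, and Timeless, Tipin, Sfpq, Hdac3 and Ncor1, were not called, with log2 differences between -0.26 and 0.26.

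Clock, Npas2, Nfil3, Usp2 and Ncoa3 were called under all 15 alternatives tried. Without 1 library the other core loop calls given here were less stable, and the limma adjusted p of Cry1 was 0.052 without shGDF11 replicate 2 and 0.055 without shGDF11 replicate 3 (range over the alternatives 0.0053 to 0.055). Leaving out shGDF11 replicate 1, shGDF11 replicate 2 or control replicate 2 gave 0.068, 0.077 and 0.057 for Cry2 (range 0.0031 to 0.077), and 0.054, 0.055 and 0.060 for Rora (range 0.00087 to 0.060). For Ciart it was 0.077, 0.088 and 0.084 without shGDF11 replicate 1, 2 or 3 (range 0.0093 to 0.088). Csnk1e (range 0.017 to 0.125) was not called without any 1 shGDF11 library or without control replicate 1 or 2, with adjusted p of 0.094, 0.114, 0.071, 0.053 and 0.086 in that order. Nono (range 0.013 to 0.164) was not called without any 1 shGDF11 library or without control replicate 2 or 3, with adjusted p of 0.085, 0.164, 0.112, 0.1145 and 0.1003 in that order. Timeless was called without control replicate 1 (limma adjusted p = 0.045, range 0.045 to 0.27). After rescaling to TPM, Timeless and Sfpq were called (limma adjusted p = 0.048 and 0.034). By limma voom on the recovered reads, Btrc and Ncor1 were called (adjusted p = 0.025 and 0.029). The 12 calls of the list were 6 without shGDF11 replicate 1 or 2, 7 without shGDF11 replicate 3, and 8 without control replicate 2. After rescaling to TPM 8 genes of the list rose and 4 fell.

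**Figure D4:**
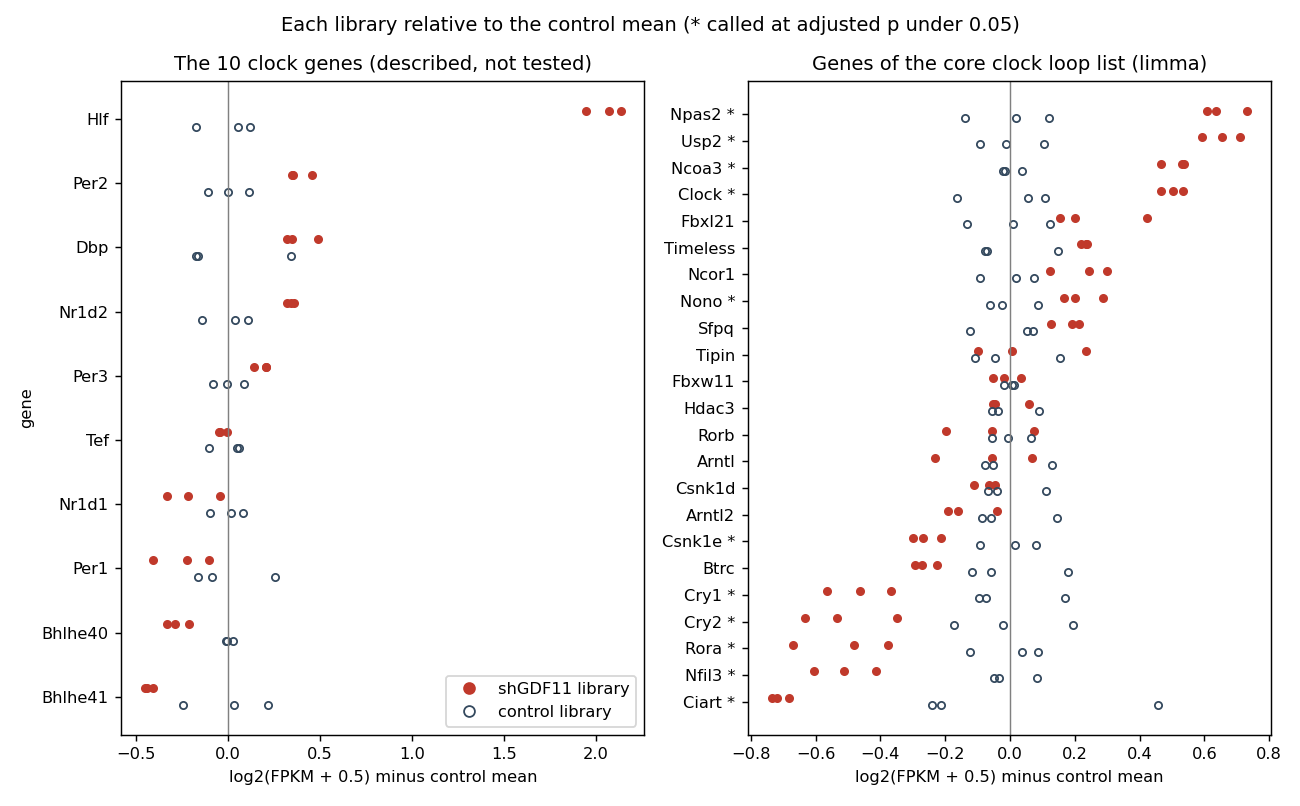
Each library's log2(FPKM + 0.5) minus the control mean (horizontal axes), with filled points for shGDF11 and open points for control libraries, for the 10 clock genes (left) and genes of the core loop list (right; a star marks a limma call). Hlf lies near 2.05 while the other differences lie between -0.71 (Ciart) and 0.66 (Npas2).

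Genes that the literature places downstream of the clock in heart changed in both directions. Of 21, all tested, 6 rose and 8 fell by limma (66.7% called, against 27.6% of all genes tested; median log2 difference -0.17). This list and those that follow were, like the core loop list, drawn up with results of these data known. Nothing is therefore read from their shares of calls. Klf10, a Krueppel-like repressor, was at 18.1, 17.4 and 18.6 FPKM in shGDF11 libraries, against 10.5, 10.4 and 11.002 FPKM in control libraries (limma adjusted p = 0.00047). Dgat2, an enzyme of triglyceride synthesis, was at 7.50, 7.05 and 7.18 FPKM in shGDF11 libraries, against 3.96, 3.44 and 3.58 FPKM in control libraries (limma adjusted p = 0.00057). Pnpla2, the triglyceride lipase ATGL, was at 17.8, 18.1 and 19.7 FPKM in shGDF11 libraries, against 41.3, 35.02 and 35.2 FPKM in control libraries (limma adjusted p = 0.00058). In these 3 genes no shGDF11 value overlapped a control value. Tcap, the titin cap gene, also rose (limma log2 difference 1.39, adjusted p = 0.00057).

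Genes described as targets of HLF, DBP and TEF in liver, kidney and brain mostly did not pass the test. Of 15, 5 were below the filter and 2 of these (Cyp2c50 and Ces2a) were listed at 0 in every library. Of the 10 tested, 1 rose and 1 fell (20% called, against 27.6% of all genes tested; median log2 difference 0.09). Gstt1, a glutathione transferase, was at 15.7, 14.3 and 11.7 FPKM in shGDF11 libraries, against 5.21, 4.99 and 5.58 FPKM in control libraries (limma log2 difference 1.31 ± 0.112 SE, adjusted p = 0.00058). Each shGDF11 library was more than 2 times as high as any control library. Ppara, the fatty acid receptor of the PPAR family, was at 1.11, 1.18 and 1.11 FPKM in shGDF11 libraries, against 1.54, 2.42 and 1.73 FPKM in control libraries (limma adjusted p = 0.039). Its call was lost without any 1 shGDF11 library or without control replicate 2 or 3, with limma adjusted p of 0.103, 0.096, 0.104, 0.086 and 0.060 in that order (range over the alternatives 0.016 to 0.109), and the count of called genes was then 1.

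Genes described as repressed by REV-ERB proteins, a list that shares Arntl, Npas2, Clock, Nfil3 and Cry1 with the core loop, changed in both directions. Of 19, 15 were tested, and 2 rose and 7 fell (60% called, against 27.6% of all genes tested; median log2 difference -0.29). The rises were Npas2 and Clock. Ccl2, a monocyte chemokine, was at 24.1, 20.5 and 20.04 FPKM in shGDF11 libraries, against 61.6, 45.5 and 45.4 FPKM in control libraries (limma adjusted p = 0.0013). All its shGDF11 values lay below every control value. Mmp9, a matrix metalloproteinase, fell by 0.61 on the log2 scale (limma adjusted p = 0.0045). Il6 also fell (limma log2 difference -1.18, adjusted p = 0.0099), on 11 to 25 reads in shGDF11 and 51 to 89 reads in control libraries. Ccl2 and Il6 are also known to respond to inflammatory signals, whose part here was not tested.

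Of 17 tested genes induced by glucocorticoids, hormones that also raise Per1 in many tissues, 9 fell and 1 rose (58.8% called, against 27.6% of all genes tested; median log2 difference -0.45). Cdkn1c, a cell cycle inhibitor, was at 17.5, 16.6 and 16.2 FPKM in shGDF11 libraries, against 35.1, 34.5 and 32.7 FPKM in control libraries (limma adjusted p = 0.00026). An antisense gene, Gm44732, lies opposite 30.65% of its exon bases and was at 0 FPKM in every library. Cdkn1a, the inhibitor p21, fell to 84.0 ± 4.81 FPKM in shGDF11, against 139.3 ± 10.002 FPKM in control libraries, and Klf9, a Krueppel-like factor, to 6.62 ± 0.320 FPKM in shGDF11, against 9.49 ± 0.432 FPKM in control libraries (mean ± SD, n = 3 each; limma adjusted p = 0.0011 and 0.0029). Dusp1, a phosphatase of MAP kinases, fell by 0.95 on the log2 scale (limma adjusted p = 0.0011). The 1 that rose was Pdk4, which is also in the heart output list, as Klf9 and Tsc22d3 are. The other falls of the list were Fkbp5, Zbtb16, Sgk1, Errfi1 and Ddit4 (limma adjusted p = 0.038, 0.022, 0.0040, 0.015 and 0.0075). Tsc22d3 (GILZ), a glucocorticoid target, was among the 7 tested genes not called (limma adjusted p = 0.13).

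**Figure D5:**
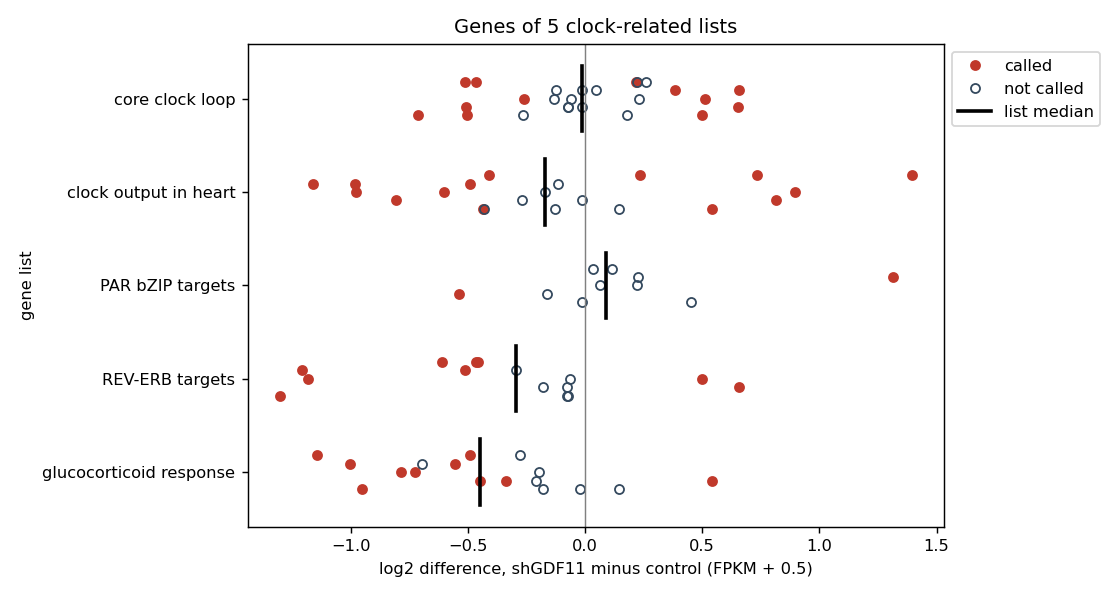
Log2 difference, shGDF11 minus control (horizontal axis), of the tested genes of 5 lists (rows); filled points were called by limma, open points were not, and the black bar is the list's median. The core loop and heart output lists spread to both sides (medians -0.01 and -0.17), and the glucocorticoid list lies mostly to the left (median -0.45).

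The genes whose profile over the 6 libraries lay nearest to those of the 3 most different clock genes were found by Euclidean distance between centred log2 values among 12849 protein-coding genes tested. For Hlf they were Pirt (distance 0.332), Tubb2a (0.377) and Capn6 (0.398), for Bhlhe41 Mmp11 (0.0786), Nfkbid (0.0829) and Tlnrd1 (0.0847), and for Per2 Pkd2l2 (0.0756), Srpk2 (0.0784) and Ppfibp1 (0.0867). Capn6, a calpain family gene, was at 9.43, 9.71 and 9.78 FPKM in shGDF11 libraries, against 2.14, 2.46 and 2.99 FPKM in control libraries. The 10 clock genes were left out of this search and could not be among these. Tubb2a has a near-identical copy that may share its reads, and 10.9% of the Pkd2l2 exon bases lie opposite Fam13b. Mmp11, like Bhlhe41, Dbp, Per1 and Ciart, was highest among the controls in replicate 1, at 7.26 FPKM, against 6.22 and 4.85 FPKM in control replicates 2 and 3. That Mmp11 shares this order with Bhlhe41 follows from how it was found. A short distance here mostly states a like difference between the 2 groups.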

How the data were processed

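Groups of the 6 RNA-seq libraries follow the treatment in the labels. The deposited values are FPKM, which the authors computed for 54532 genes and listed beside each gene's length. Tools listed in the submitters' processing notes are featureCounts 1.5.0-p3, HISAT2 2.0.5 and CASAVA 1.8, without role or order, beside the builds mm10 and GRCm38. The annotation release is not given in the sources used here. FPKM times gene length gave whole reads: 100% of positive values lay within 0.05 of a whole number. A floor of 3 reads equals 0.18 to 0.191 FPKM for a gene of 1 kb; it covers counting error only. All 10 clock genes had the same coordinates in GENCODE M21 (GRCm38), which also gave exon overlaps.

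The test was limma 3.58.1 in R 4.3.3 on log2(FPKM + 0.5), for the 15418 genes averaging 0.5 FPKM or more (moderated two-sided test, eBayes with a variance trend, Benjamini-Hochberg over all genes tested, called under 0.05). This scale understates differences of low genes. An exact permutation test of 3 against 3 cannot go below p = 0.1 and was not used. The 10 clock genes and the gene lists were chosen with earlier results of these data known. Named genes were the 10 genes, all core loop genes, up to 4 called genes of smallest p in each other list, and the 3 nearest profiles of the 3 most different clock genes, with Gdf11 and genes overlapping the 10. Pdk4, Il6, Tsc22d3, Fkbp5, Zbtb16, Sgk1, Errfi1, Ddit4, Cyp2c50, Ces2a and marker genes were named outside this rule, after their values were seen. Some genes of the lists are counted but not reported here. The alternatives were the pseudocount (0.1 and 1), the filter (none, and a mean of 2 FPKM), rescaling to TPM, median-of-ratios scaling, no variance trend, a replicate block, limma voom on the reads, and leaving out each library.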

Additional observations from a re-analysis of the deposited data

How the results depend on the processing

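The number of genes called, 4253 in the main test, was 2346 to 4238 with 1 library left out (2722, 2346 and 2535 without shGDF11 replicate 1, 2 and 3) and 5068 by limma voom on the recovered reads. Of the calls, 66.2% were higher after rescaling to TPM, against 52.4% in the main test. Core loop calls (12) were 6 with no filter on low values and 6 to 12 with 1 library left out. Calls among PAR bZIP targets (2) were 1 with no filter, at a mean of 2 FPKM, after rescaling to TPM and with the replicate block, and 1 to 2 with 1 library left out. The calls in the heart output (14), REV-ERB target (9) and glucocorticoid (10) lists stayed within 1.5 times under all alternatives. With the replicate block 3223 genes were called in all, with 9, 13, 1, 9 and 9 in the core loop, heart output, PAR bZIP target, REV-ERB target and glucocorticoid lists. The block also ended the calls of Csnk1e, Nono and Ppara (limma adjusted p = 0.082, 0.106 and 0.056). The labels give no pairing by replicate number, and deviations of same-numbered libraries from their group means correlated at 0.0154, 0.0150 and -0.0522 over the genes tested.

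Among the tested genes named, sign changes were seen in 6 core loop genes that no alternative called. After rescaling to TPM, the log2 difference was 0.0015 for Arntl, 0.016 for Csnk1d, 0.078 for Fbxw11 and 0.077 for Hdac3. With 1 library left out it ran between -0.143 and 0.0061 for Arntl, -0.127 and 0.00996 for Rorb, -0.0357 and 0.0068 for Fbxw11, -0.046 and 0.125 for Tipin, and -0.0498 and 0.032 for Hdac3. Over all genes tested, the median log2 difference was 0.006 in the main test and 0.094 after rescaling to TPM. The cause of the sign changes was not tested. Among the 10 clock genes, Hlf ran from 1.797 (pseudocount 1) to 2.40 (limma voom on reads), and only Tef changed sign (-0.03, and 0.06 after rescaling to TPM).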
